A study of Coryphaena hippurus with 32 samples.

Results

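Normal development of mahi-mahi (Coryphaena hippurus) between 48 and 96 h post fertilization (hpf) is described here from unexposed animals: 6 deposited samples of 48 hpf and 5 of 96 hpf, 11 of the 32 samples of the series. They were chosen by their labels alone, as the control columns of these stages in the count table. The series measured messenger RNA by sequencing at 24, 48 and 96 hpf, in animals kept in clean seawater or with oil of the Deepwater Horizon spill. Oil came as a slick sample or a source sample, each mixed into seawater (1 g/l per the labels, against 0 g/l in controls). All groups were offspring of wild-caught broodstock that spawned without hormone induction, and were held at 27 °C in beakers whose water was not renewed. Each replicate pooled 30 whole embryos or larvae. Nothing in the labels says that replicates came from separate spawns, so the p-values below measure the spread between these samples only.

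Within each stage some deposited samples matched each other within sampling noise: replicates 4 and 5, 6 and 7, and 8 and 9 at 48 hpf, and 10 and 11, and 12 and 13 at 96 hpf. For these 5 pairs the chi-square per degree of freedom was 0.968 to 1.03, against 1.21 to 1.88 for the other 20 control pairs. Each pair was summed and counted as 1 library, which left 3 libraries a stage (6 of the 27 of the series). The libraries held 4266064 to 4470040 counts at 48 hpf and 2092433 to 4112428 at 96 hpf over 1 line per gene. The lowest is replicate 14 of 96 hpf, a single sample. Values below are normalised counts, that is, counts scaled to the mean effective library size of the 6 libraries.

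A marine fish embryo lives on its yolk, hatches, and within days must see, swim and digest prey. Over this time the exocrine pancreas and gut begin to make digestive enzymes, the retina builds photoreceptors, neurons form synapses, and dividing progenitor cells give way to differentiated ones. The table is keyed to human gene identifiers, so a symbol stands for the mahi-mahi sequences that best match that human gene, and paralogs can share it. In whole animals, fewer cells of a type and less RNA per cell cannot be told apart.

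Of 9128 genes tested, 2940 were higher at 96 than at 48 hpf (32.2%) and 2756 were lower (30.2%), 62.4% in all, at an adjusted p below 0.05 in edgeR's quasi-likelihood test. With a change of 2-fold or more added, 1343 were higher (14.7%) and 555 lower (6.08%). Large changes were mostly increases. At 10-fold or more there were 161 higher and 11 lower genes, and the median log2 change was 0.93 among higher and -0.60 among lower genes. Groups did not overlap in 64.6% of genes. A share of members called in a list is read below against these percentages. The split of directions depends on scaling. TMM scaling factors were 0.879 to 0.925 at 48 hpf and 1.10 to 1.13 at 96 hpf, and with library sizes alone the median of all genes moved from -0.00228 to 0.315 (log2), with 4534 genes higher and 1362 lower. The shares of counts given next are over 1 line per gene, not over all lines. The 15 features with most counts at 48 hpf held 34.4% to 36.6% of counts there and 22.1% to 22.6% at 96 hpf. They include the actin gene ACTC1 (5.66% of counts at 48 hpf and 3.58% at 96 hpf) and CKM, the creatine kinase of muscle (5.58% and 2.71%).

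**Figure D1:**
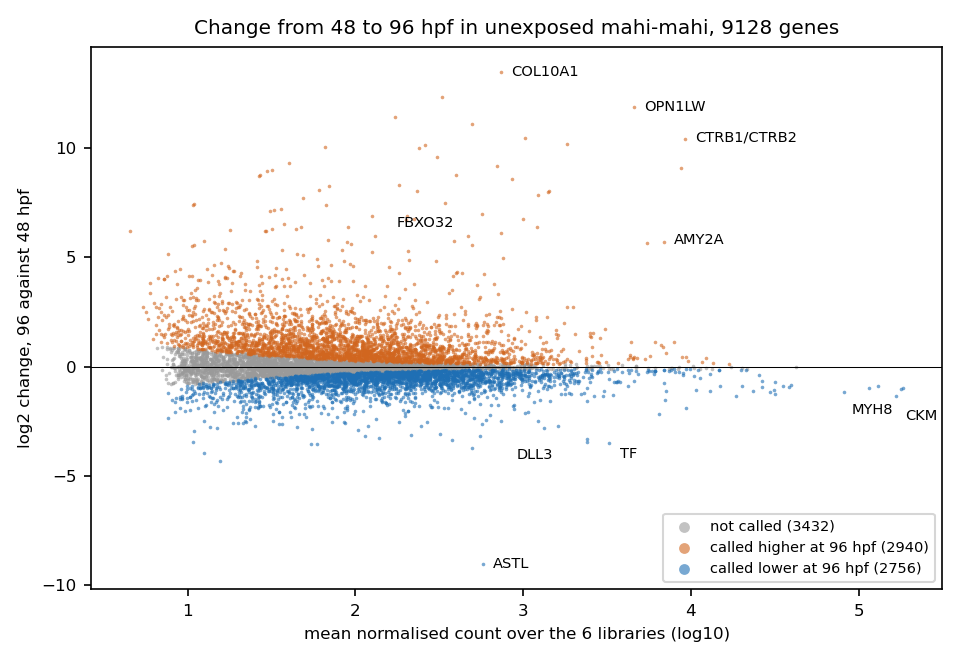
Log2 change from 48 to 96 hpf (y axis) against the log10 of the mean normalised count over 6 libraries (x axis), 1 point a gene, coloured by call. The 2940 higher genes reach far larger changes than the 2756 lower ones, and CKM and MYH8, among the genes with the most counts, lie below the line. Changes of genes at or near 0 counts in a stage are fitted values, not bounds.

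Of the 57 lists with 8 or more tested members, the digestive enzymes of the exocrine pancreas had the highest median change. Of 12 pancreatic digestive enzyme genes and their regulators tested (of 16 with a line in the table), 12 rose. The rise was 2-fold or more in 11 of them. Their median log2 change was 8.40, or 7.20 with all lines of a gene summed. PRSS1, a trypsin, had 33.1, 30.1 and 30.3 normalised counts at 48 hpf and 17645, 16488 and 17922 at 96 hpf. The stages were far apart, an increase of 555-fold (adjusted p = 2.7e-47). CTRB1/CTRB2, the chymotrypsins, which share 1 line, had 15.5, 16.01 and 8.80 normalised counts at 48 hpf and 18069, 17441 and 19666 at 96 hpf, a rise of 1356-fold (adjusted p = 5e-47). AMY2A, the pancreatic amylase that splits starch, had 259, 265 and 249 normalised counts at 48 hpf and 12827, 12757 and 15116 at 96 hpf. It was already well counted at 48 hpf and rose 52.5-fold (adjusted p = 5.9e-43). The carboxypeptidase genes CPA1 and CPB1, which trim amino acids from the ends of peptides, rose from 17.9 to 1966 and from 10.8 to 2815 normalised counts (108-fold and 257-fold). PRSS2, a second trypsin, rose from 2.96 to 3655. CELA1, an elastase, had a single count over the 48 hpf libraries (ratio 3010, 95% exact counting interval 540 to 119000). CEL, the lipase activated by bile salts, had 1 count there as well on its kept line (ratio 1440, 95% exact counting interval 258 to 56900), but with its 10 lines summed its log2 change fell from a fitted 10.03 to 5.23. CTRC, a chymotrypsin, likewise gave 8.80 on the kept line and 7.71 with lines summed, and the former was 9.43 without 48 hpf replicates 6 and 7. Smaller rises were those of NR5A2, a transcription factor of acinar cells (2.90-fold), and TMPRSS15, the gut enteropeptidase that activates trypsin (2.61-fold).

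Genes of the gut lining also rose. Of 14 intestinal brush border genes tested, 13 rose and 1 was not called (median log2 change 5.22, or 4.38 with the 3 genes at 0 at 48 hpf put at their lower bound). ANPEP, the aminopeptidase that finishes peptide digestion at the cell surface, had 10.3, 6.59 and 9.77 normalised counts at 48 hpf and 1183, 1127 and 1088 at 96 hpf. The groups were well separated, by 127-fold (log2 6.30 with its lines summed, against 6.99). LCT, named for the disaccharidase lactase, rose from 3.997 to 441 normalised counts, and MGAM, which splits maltose, from 20.7 to 1455. MEP1B, a membrane metalloprotease, had no count in any 48 hpf library and 144, 124 and 125 normalised counts at 96 hpf. That is at least 135-fold higher, against a floor of 3 counts over the 48 hpf libraries. SLC10A2, the ileal bile acid carrier, was also at 0 at 48 hpf (at least 64.9-fold higher). Transporters of digestion products rose. SLC15A1, the di- and tripeptide carrier, went from 15.96 to 213 normalised counts (log2 5.05 with its lines summed, against 3.71). SLC5A1, the sodium-driven glucose carrier, went from 17.3 to 347, and SLC6A19, a carrier of neutral amino acids, from 38.9 to 759 normalised counts. Of stomach and mucosa genes only 2 were tested, with SST, the hormone somatostatin, higher (1.59 ± 1.45 normalised counts at 48 hpf and 11.9 ± 2.98 at 96 hpf; log2 2.69, or 3.32 without 48 hpf replicates 6 and 7) and FOXA3, an endoderm transcription factor, lower (113 ± 5.74 normalised counts at 48 hpf and 63.3 ± 7.08 at 96 hpf).

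**Figure D2:**
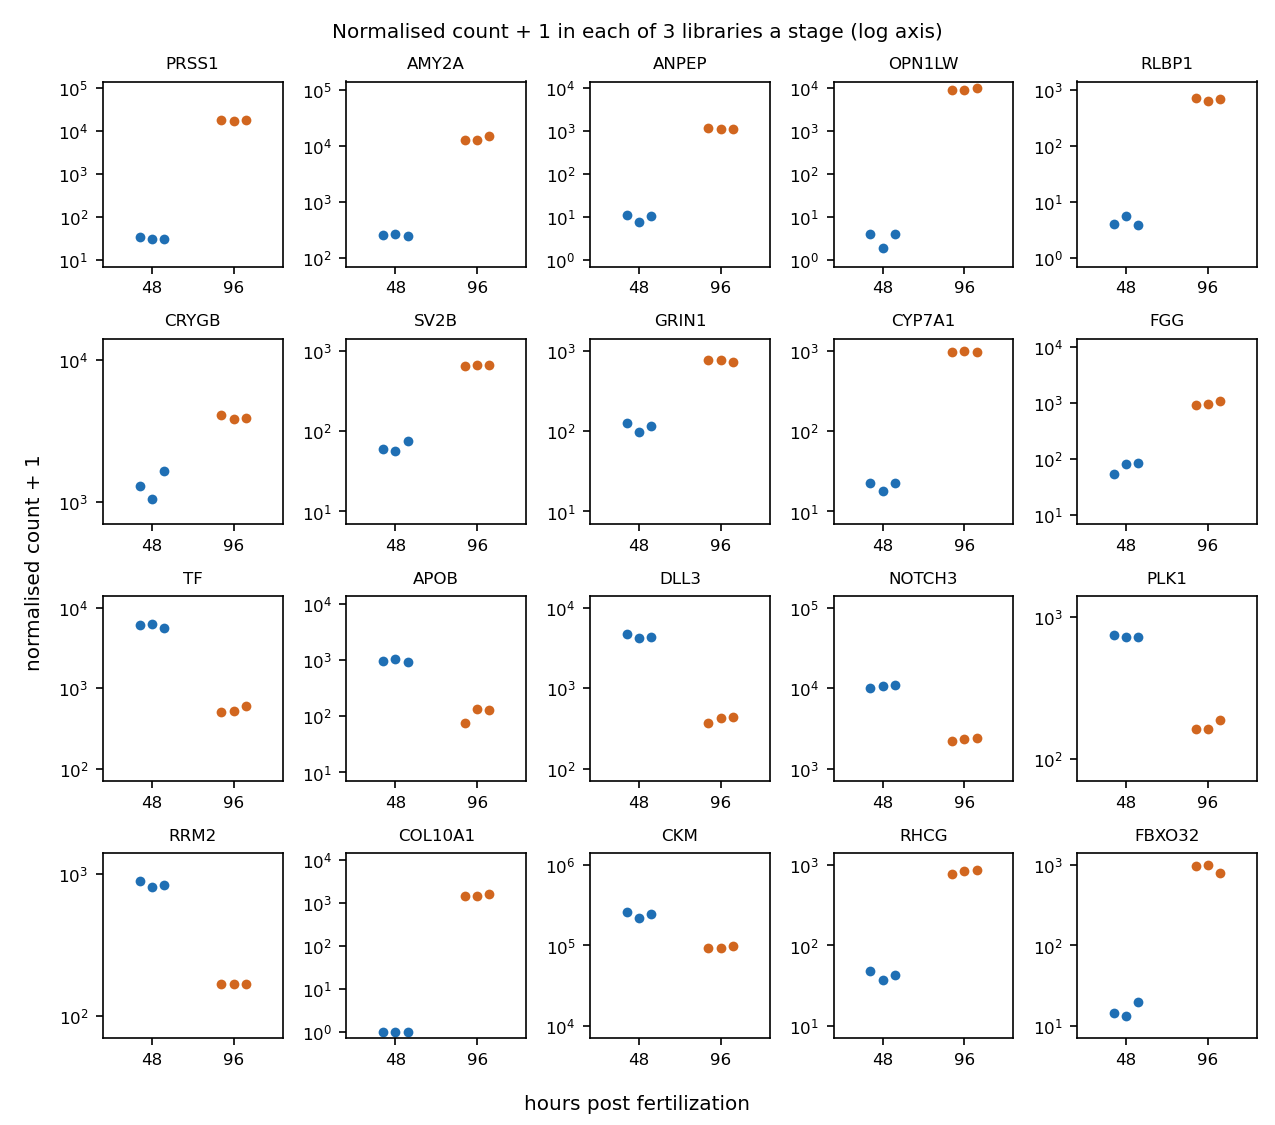
Normalised count plus 1 on a log axis in each of 3 libraries at 48 hpf (blue) and 96 hpf (orange), for 20 genes; 1 point a library. In every panel the stages are separate, and libraries of a stage lie closer to each other than to the other stage. The 20 genes were picked among those named here, many for their large change, so their separation says nothing of other genes. Over all genes tested, groups did not overlap in 64.6%.

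In the eye, genes of the light-sensing machinery rose. Of 22 phototransduction genes tested (of 28 with a line), 21 rose, all by 2-fold or more. The median log2 change was 6.25, or 6.10 with the 2 genes at 0 at 48 hpf put at their lower bound. With all lines of a gene summed the median was 4.74, with 21 higher. OPN1LW, a cone opsin, the pigment that absorbs light, had 3.10, 0.942 and 2.93 normalised counts at 48 hpf and 8909, 8917 and 9793 at 96 hpf. All 48 hpf libraries were near 0 and all 96 hpf libraries far above them, a rise of 3804-fold (adjusted p = 3.2e-46). GRK7, the kinase that shuts off cone opsins, was at 0 at 48 hpf and rose at least 666-fold. ARR3, the cone arrestin that binds the phosphorylated opsin, had a single count at 48 hpf (ratio 1540, 95% exact counting interval 277 to 61100). GNB3, a subunit of the cone G protein, and RGS9, which speeds its shutoff, rose by 8.61 and 6.89 (log2) on their kept lines and by 4.69 and 4.11 with lines summed. Without 48 hpf replicates 6 and 7 the kept line of GNB3 rose by 9.33. Other G protein and effector genes were already counted at 48 hpf. GNAT2, the cone transducin, had 312, 316 and 317 normalised counts at 48 hpf and 1689.5, 1755 and 1850.2 at 96 hpf and rose 5.58-fold. GNAT1, the rod transducin (3.25-fold), and PDE6C, the cone phosphodiesterase (4.36-fold) also rose. PRPH2, which shapes the disc membranes, had 2 counts at 48 hpf (ratio 919, 95% exact counting interval 254 to 7600) and changed by 7.78 (log2) with lines summed.

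The visual cycle, which renews the light-sensitive retinoid, had 7 of 9 genes higher and 1 lower. Its median log2 change was 1.46, or 0.65 with lines summed, with 6 higher and 0 lower. RLBP1, the retinaldehyde binding protein of retinal support cells, had 3.10, 4.71 and 2.93 normalised counts at 48 hpf and 721, 632 and 686 at 96 hpf. Its rise of 182-fold was 5.36 on the log2 scale with lines summed, against 7.51. RBP3, a retinoid carrier between cells, was at 0 at 48 hpf and rose at least 80.5-fold. STRA6, the retinol uptake receptor, rose 29.02-fold and BCO1, which cleaves beta-carotene, 6.39-fold. RPE65, the isomerase of the cycle, rose 2.76-fold on its kept line, a call lost with lines summed (log2 0.10). Lens genes rose by smaller amounts, 10 of 11 (median log2 change 1.29). CRYGB, a gamma crystallin whose symbol holds 23 lines, had 1289.6, 1041 and 1655 normalised counts at 48 hpf and 4065, 3794 and 3871 at 96 hpf, a rise of 2.95-fold. The beta crystallins CRYBA4 and CRYBB1 rose 2.88-fold and 2.86-fold.

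Transcription factors of the retina moved the other way. Of 14 photoreceptor and retina regulators 8 fell and 1 rose (median -0.34). With library sizes alone 4 fell and 4 rose. OTX2, which starts photoreceptor fate, had 191, 179 and 170 normalised counts at 48 hpf and 87.3, 88.5 and 92.9 at 96 hpf, lower by 2.02-fold. NR2E3, a nuclear receptor of rods, fell 5.65-fold (37.1 ± 5.07 normalised counts at 48 hpf and 6.51 ± 0.579 at 96 hpf) and PAX6, the eye field regulator, 1.76-fold. POU4F2, a factor of retinal ganglion cells, was the only one called higher (1.48-fold).

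In the nervous system, genes of synapses rose together. Of 44 synapse and neurotransmission genes 42 were higher, 39 of them by 2-fold or more, and the median log2 change was 1.89. SV2B, a protein of synaptic vesicles, had 58.9, 54.6 and 73.3 normalised counts at 48 hpf and 649.9, 654 and 667 at 96 hpf. The groups were separate and the rise was 10.5-fold (adjusted p = 3.6e-31). SNAP25, part of the vesicle fusion machinery, rose 2.80-fold (175 ± 11.9 normalised counts at 48 hpf and 493 ± 18.2 at 96 hpf) and SYT1, its calcium sensor, 5.71-fold. Receptors rose on the receiving side. GRIN1, the obligatory subunit of NMDA glutamate receptors, had 126, 96.05 and 115 normalised counts at 48 hpf and 754, 758 and 716 at 96 hpf, a rise of 6.65-fold. GABRB2, a subunit of the inhibitory GABA receptor, rose 8.88-fold. Transmitter genes moved less evenly. GAD1, which makes GABA, rose 3.80-fold and CHAT, which makes acetylcholine, 2.97-fold. The 1 lower member was TPH1, which starts serotonin synthesis (1.46-fold), a call lost with library sizes alone and without 96 hpf replicates 10 and 11.

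Neuron and axon genes were split, with 8 of 15 higher and 5 lower. The neurexin genes NRXN2 and NRXN3, which bridge synapses, rose 3.57-fold and 3.59-fold. Some genes of young neurons fell: ELAVL3, an RNA-binding protein of newborn neurons (2.40-fold), DCX, of migrating neurons (1.62-fold), and CNTN2, of growing axons (2.36-fold). The neuronal genes ELAVL4 and CNTN1 were called higher. Of 9 glial genes 4 rose and 2 fell. OLIG2, a factor of oligodendrocyte precursors, had 50.6, 38.6 and 42.02 normalised counts at 48 hpf and 6.05, 6.68 and 6.76 at 96 hpf. It was lower by 6.65-fold at 96 hpf, while MAG, a protein of the myelin sheath, rose 2.86-fold and SLC1A2, the astrocyte glutamate carrier, 2.47-fold.

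Neural progenitor genes fell. Of 26 tested, 23 were lower, 14 of them by 2-fold or more, and 3 were not called (median log2 change -1.08). DLL3, a modifier of Notch signals in cells leaving the progenitor state, had 4665, 4154 and 4299.9 normalised counts at 48 hpf and 365, 423 and 439 at 96 hpf. The decrease was 10.8-fold (adjusted p = 7.1e-37). DLL1, a Notch ligand, fell 6.67-fold (2807 ± 172 normalised counts at 48 hpf and 419 ± 11.3 at 96 hpf). The receptors NOTCH1 and NOTCH3 fell 3.66-fold and 4.55-fold. HES6 and INSM1, factors of cells becoming neurons, fell 6.56-fold and 5.39-fold, and the progenitor factors SOX3 and SOX2 3.53-fold and 2.33-fold. NEUROD4, a proneural factor, had 101, 101 and 87.95 normalised counts at 48 hpf and 8.64, 16.7 and 15.2 at 96 hpf, a log2 change of -2.86 on the kept line and -1.61 with lines summed. HELT, a repressor of the midbrain, fell 7.42-fold.

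Genes of cell division fell. Of 34 mitosis genes 33 fell, 30 of them by 2-fold or more, and the median log2 change was -1.78. PLK1, a kinase that drives entry into mitosis, had 748, 720.4 and 715 normalised counts at 48 hpf and 162, 162 and 188 at 96 hpf. The groups were well apart (4.35-fold lower, adjusted p = 3.1e-27). CDC20, which activates the ubiquitin ligase of anaphase, fell 4.82-fold, AURKA, a spindle pole kinase, 4.92-fold, and CCNB1, cyclin B1, 4.28-fold. E2F1, a regulator of the step into DNA synthesis, was the 1 member not called (adjusted p = 0.18). DNA replication genes fell less: 27 of 33 were lower and 6 not called, with a median of -0.73 (17 lower with library sizes alone). RRM2, the subunit of ribonucleotide reductase made in dividing cells, had 886, 815 and 838 normalised counts at 48 hpf and 167, 169 and 169 at 96 hpf, lower by 5.03-fold. CDC45 and MCM10, parts of the replication fork, fell 2.48-fold and 2.22-fold. MCM2, of the replicative helicase, fell only 1.20-fold, and with library sizes alone its direction turned (log2 0.051). Chromatin genes fell too, with 14 of 15 lower (median -0.85). HMGB2, a DNA-bending protein of dividing cells, fell 2.58-fold, HDAC1, a histone deacetylase, 2.46-fold, and EZH2, the methyltransferase of Polycomb complex 2, 1.90-fold. Of 27 splicing genes 24 fell (median -0.76), among them SNRPA, of the U1 particle (2.33-fold), and U2AF1, which reads the 3′ splice site (2.17-fold).

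Among early patterning genes, most Hox and most notochord and fin fold genes fell, and developmental signals were mixed. Of 13 Hox genes, which set position along the body axis, 10 were lower and 3 not called (median -0.64). With library sizes alone 7 of these Hox genes were lower and 2 higher (median -0.32). HOXA11 and HOXA9 fell 2.02-fold and 1.996-fold. Of 37 genes of developmental signals 15 fell, 5 rose and 17 were not called (median -0.16, or 0.16 with library sizes alone). CYP26C1, which breaks down retinoic acid, fell 4.94-fold while ALDH1A2, which makes it, rose 2.04-fold. CHRD, an inhibitor of bone morphogenetic proteins, rose 3.20-fold. Of 11 notochord and fin fold genes 9 fell, such as FREM2 (2.28-fold) and FRAS1 (1.90-fold), matrix proteins that hold the fin fold layers together. With library sizes alone 7 notochord and fin fold genes fell and 1 rose. LIN28A, an RNA-binding protein of early developmental timing, had 192, 192 and 235 normalised counts at 48 hpf and 22.5, 22.5 and 21.97 at 96 hpf, lower by 9.17-fold. GDF11, a growth factor of trunk and tail patterning, fell 8.90-fold, and WFIKKN1, which binds it in mammals, 9.69-fold.

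**Figure D3:**
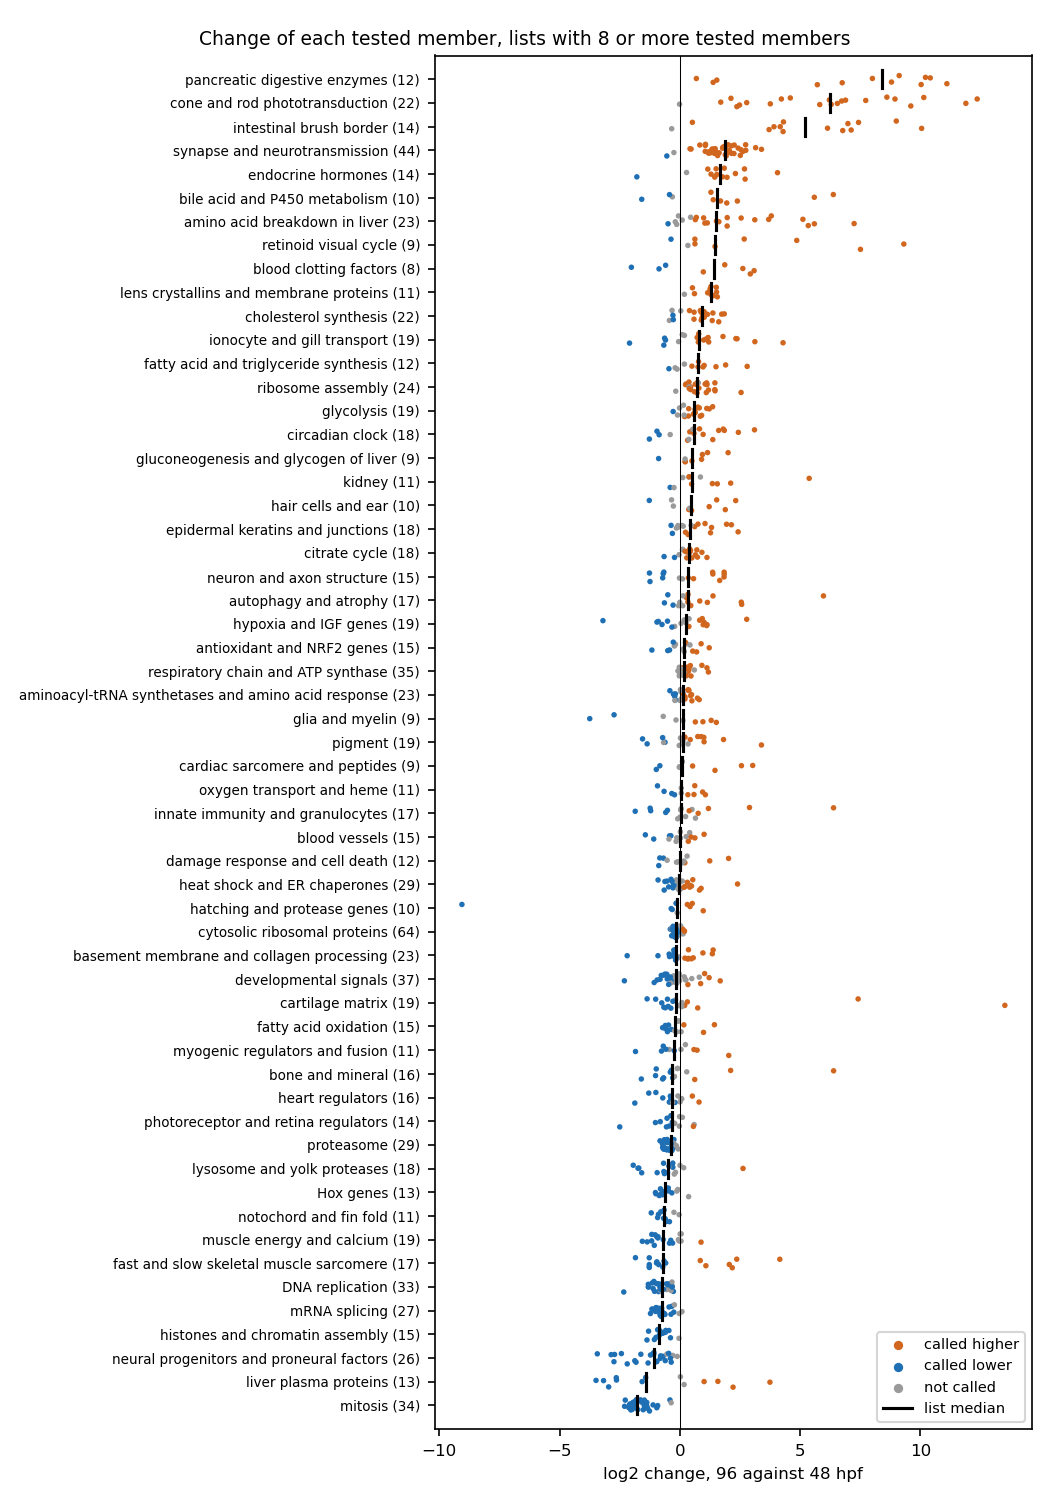
Log2 change from 48 to 96 hpf of each tested member (points) in 57 lists with 8 or more tested members, sorted by the list median (black bar); the number tested stands after each name. Pancreas, phototransduction and gut lists lie far to the right, and mitosis, liver plasma protein and neural progenitor lists to the left.

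Genes of proteins that the liver secretes were split between large decreases and large increases. Of 13 plasma protein genes 7 fell and 4 rose, each by 2-fold or more. Their median log2 change was -1.42, but 0.02 when each deposited sample was kept separate, with fewer members past the filter. TF, the iron carrier transferrin, had 6132, 6268 and 5581 normalised counts at 48 hpf and 501, 524 and 603 at 96 hpf. It was lower by 11.2-fold (adjusted p = 2e-37). APOB, the scaffold of the lipoproteins that carry lipid into the blood, had 979, 1052 and 947 normalised counts at 48 hpf and 74.3, 135 and 128 at 96 hpf, lower by 9.01-fold. CP, the copper carrier ceruloplasmin, fell 6.20-fold and AMBP, a precursor of a lipocalin and a protease inhibitor, 6.24-fold. FETUB, a fetuin that inhibits astacin proteases, fell 10.04-fold (4365 ± 385 normalised counts at 48 hpf and 441 ± 44.3 at 96 hpf), and LCAT, which esterifies cholesterol in plasma, 8.51-fold. Fibrinogen went the other way. FGG, its gamma chain, had 52.7, 80.98 and 83.1 normalised counts at 48 hpf and 926, 962 and 1064 at 96 hpf and rose 13.4-fold. FGA and FGB, the other chains, rose 4.63-fold and 2.99-fold. RBP4, the retinol carrier, was not called (2719 ± 55.5 normalised counts at 48 hpf and 2767 ± 118 at 96 hpf) unless library sizes alone were used. Clotting factors were split as well, with 5 of 8 higher and 3 lower. F7, which starts clotting, rose 8.496-fold and VWF, which tethers platelets (thrombocytes in fish), 6.14-fold, while F2, prothrombin, fell 1.82-fold and SERPIND1, a thrombin inhibitor, 4.04-fold. Of 4 complement genes 3 rose, such as CFI, a protease that limits complement (4.70-fold), and C8G fell 1.31-fold, a call lost with library sizes alone.

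Liver enzymes mostly rose. Of 23 genes of amino acid breakdown 17 were higher, 14 of them by 2-fold or more, and 1 was lower (median 1.52). TAT, the first enzyme of tyrosine breakdown, had a single count at 48 hpf (ratio 207, 95% exact counting interval 36.8 to 8220). HPD, the second enzyme, rose 34.7-fold and TDO2, the first of tryptophan breakdown, 40.5-fold. GLDC, of the glycine cleavage system, had 89.9, 89.5 and 88.9 normalised counts at 48 hpf and 1223, 1205 and 1343 at 96 hpf, a rise of 13.9-fold, and its partner AMT rose 12.9-fold. Bile acid and P450 genes had 7 of 10 higher and 2 lower. CYP7A1, the rate-limiting enzyme of bile acid synthesis, had 21.7, 16.9 and 21.5 normalised counts at 48 hpf and 947, 989 and 968 at 96 hpf, and rose 48.2-fold. ABCB11, the pump that exports bile salts, rose 83.3-fold and NR1H4, the bile acid receptor, 5.25-fold. CYP1A1, the monooxygenase known for its induction by oil hydrocarbons, was lower by 1.35-fold in these unexposed animals (209 ± 16.2 normalised counts at 48 hpf and 155 ± 24.5 at 96 hpf), a call lost with library sizes alone.

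Of 9 genes of gluconeogenesis and liver glycogen 7 rose. PCK1, which commits oxaloacetate to glucose synthesis, had 693, 726 and 666 normalised counts at 48 hpf and 2702, 2845 and 2837 at 96 hpf, a rise of 4.02-fold. PC, which makes that oxaloacetate, fell 1.84-fold. G6PC, the last enzyme of the path, rose 1.17-fold, a call lost without 48 hpf replicates 6 and 7. Glycolysis had 14 of 19 genes higher and 1 lower (median 0.60), with PGK1 at 2.57-fold and PKM at 2.17-fold. Cholesterol synthesis rose in 17 of 22 genes and fell in 2 (median 0.90). MSMO1, a sterol demethylase step, had 238, 240.1 and 213 normalised counts at 48 hpf and 811, 843 and 831 at 96 hpf, higher by 3.59-fold. DHCR7, the last step, rose 3.07-fold. In the synthesis of fatty acids and triglycerides 8 of 12 genes rose and 1 fell. LPIN1, which makes diacylglycerol, rose 6.96-fold. Fatty acid oxidation was lower in 7 of 15 genes and higher in 3 (median -0.22, or 0.10 with library sizes alone). CPT1A, which admits fatty acids to mitochondria, fell 1.38-fold while ACADS, an acyl-CoA dehydrogenase, rose 2.71-fold. The respiratory chain rose in 18 of 35 genes by small amounts (median 0.18, or 0.49 and 33 higher with library sizes alone). SDHA of complex II rose 2.18-fold and COX6B1 of complex IV 2.28-fold. Of 18 citrate cycle genes 12 rose and 2 fell.

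Genes of trunk muscle were mostly lower. Of 19 genes of muscle energy and calcium handling 13 fell and 1 rose (median -0.69), or 11 and 6 with library sizes alone. CKM had 258147, 216670 and 249648 normalised counts at 48 hpf and 91939, 93216 and 97554 at 96 hpf, lower by 2.56-fold (adjusted p = 1.3e-23). CASQ1, which stores calcium in the sarcoplasmic reticulum, fell 2.95-fold. In the skeletal sarcomere 11 of 17 genes fell and 6 rose. MYH8, a myosin heavy chain line, fell 1.96-fold, MYLPF, the fast light chain, 2.41-fold, and MYOZ1, a Z-disc protein, 3.59-fold. Those that rose included slow muscle genes: MYBPC1, the slow myosin-binding protein C, had 56.8, 44.3 and 21.5 normalised counts at 48 hpf and 750.1, 710.3 and 713 at 96 hpf, a rise of 17.8-fold, and TNNT1, slow troponin T, rose 4.16-fold. TNNC2, the fast troponin C, also rose (4.52-fold). MYH7, named for a slow myosin heavy chain, was called lower. It held 1.17% of counts over 1 line per gene at 48 hpf and 0.816% at 96 hpf. IGFN1, a protein of skeletal muscle, fell 10.4-fold. Of cardiac sarcomere genes 4 of 9 rose and 2 fell. MYL7, the atrial light chain, rose 2.75-fold (13.49 ± 2.77 normalised counts at 48 hpf and 36.1 ± 5.66 at 96 hpf), and ACTC1, named for cardiac actin, fell 1.97-fold. Actins and myosins of heart and trunk muscle are alike, so these symbols do not separate the tissues. Of 16 heart regulators 9 fell and 2 rose (4 and 5 with library sizes alone), with TBX20 and HAND1 lower (2.45-fold and 1.996-fold) and MEF2A higher (1.74-fold). MSTN, the growth inhibitor myostatin, fell 3.59-fold, and MYOG, myogenin, rose 1.64-fold. The myogenic list as a whole had 5 lower and 3 higher of 11 (median -0.23, or 0.09 with library sizes alone).

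In the skeleton, COL10A1, the collagen of hypertrophic cartilage and, in fish, of bone-forming cells, had no count in any 48 hpf library and 1456, 1393 and 1555 normalised counts at 96 hpf. It was at least 1480-fold higher. MATN1, a cartilage matrix protein, had 2 counts at 48 hpf (ratio 202, 95% exact counting interval 55.5 to 1670). The cartilage list around them was not shifted upward: 9 of 19 genes fell and 5 rose, with a median of -0.18, which turned to 0.14 with library sizes alone. COMP, a cartilage oligomeric protein, fell 2.57-fold and HAPLN1, which links hyaluronan, 2.01-fold. COL2A1, the main cartilage collagen, fell 1.29-fold (28619.9 ± 1166 normalised counts at 48 hpf and 22092 ± 1862 at 96 hpf), a call lost with library sizes alone. Of 16 bone genes 9 fell and 3 rose (4 and 5 with library sizes alone). ENTPD5, an enzyme that zebrafish need for bone mineral, had 3 counts at 48 hpf (ratio 94.3, 95% exact counting interval 31.9 to 460). RUNX2, the bone fate regulator, rose 4.32-fold while SP7, its downstream factor in osteoblasts, fell 1.28-fold, a call lost with library sizes alone. COL1A1, of bone and skin, fell 1.64-fold and CTSK, the osteoclast protease, 3.03-fold. Basement membrane genes were split, 12 lower and 9 higher of 23 (median -0.15, or 0.16 with library sizes alone). LAMA1, an early laminin, fell 4.56-fold and LOX, which cross-links collagen, rose 2.61-fold.

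Genes of ion and ammonia transport mostly rose. Of 19 ionocyte and gill genes 12 were higher and 4 lower (median 0.78). RHCG, an ammonia channel of fish gill and skin, had 46.5, 36.7 and 42.02 normalised counts at 48 hpf and 767, 833 and 863 at 96 hpf. The rise was 19.6-fold, with RHBG, a second channel, at 8.69-fold and RHAG, the red cell form, at 5.20-fold. CFTR, the chloride channel of salt secretion in marine fish, was not called (adjusted p = 0.68). FOXI1 and FOXI3, factors that specify ionocytes, fell 1.51-fold and 1.55-fold, calls lost with library sizes alone. Of 18 epidermal genes 10 were higher and 2 lower, those of desmosomes and the cell envelope by most. PPL, periplakin, had 114, 131 and 119 normalised counts at 48 hpf and 627, 652 and 689 at 96 hpf, a rise of 5.36-fold, EVPL, envoplakin, rose 4.42-fold, and PKP1, a desmosome protein, 3.84-fold. KRT8, a simple epithelial keratin, was not called (adjusted p = 0.5) unless library sizes alone were used. Of 11 kidney genes 6 rose and 1 fell, the former such as SLC12A1, a salt carrier of the nephron (2.56-fold), and SLC22A6, an anion carrier of its proximal part (4.32-fold).

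Hormone genes rose in 12 of 14 (median 1.65). POMC, the precursor of the pituitary hormones ACTH and MSH, had 23.8, 25.4 and 16.6 normalised counts at 48 hpf and 114, 103 and 113 at 96 hpf, a rise of 4.96-fold. INS, insulin, had 29.97, 31.1 and 27.4 normalised counts at 48 hpf and 68.3, 76.8 and 72.7 at 96 hpf, 2.46-fold higher. The processing enzymes PCSK1 and CPE, which cut prohormones, rose 3.42-fold and 3.60-fold. STC1, which restrains calcium uptake in fish, rose 3.90-fold. DIO3, which inactivates thyroid hormone, fell 3.45-fold. Of 10 genes of hair cells and ear 6 rose, OTOF, which links calcium to transmitter release in hair cells, by 2.33-fold. OTOG, of the membranes over hair cells, fell 2.41-fold. Of 6 tested motile cilia genes 3 fell and 3 were not called, and DNAH9, a dynein arm protein, fell 3.12-fold.

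Protein production and breakdown did not move as one. Ribosome assembly genes rose in 21 of 24 (median 0.72). DDX21, a nucleolar helicase, had 126, 142 and 127 normalised counts at 48 hpf and 815, 720.3 and 781 at 96 hpf, a rise of 5.83-fold, and POLR1B, of RNA polymerase I, rose 2.75-fold. Ribosomal proteins themselves were slightly lower: 40 of 64 fell, 3 rose, with a median of -0.15, but with library sizes alone the median was 0.17, with 47 higher. RPS29 fell 1.25-fold, a call lost with library sizes alone, and RPL3 rose 1.14-fold. Proteasome genes fell in 25 of 29 (median -0.38, or -0.06 and 11 lower with library sizes alone), PSMB7 of its catalytic core by 1.77-fold. Most lysosome genes fell. Of 18 lysosome genes 12 were lower and 1 higher (median -0.48; 6 lower with library sizes alone). CTSD, an aspartic protease that in fish also cuts yolk proteins, had 1476, 1386 and 1316 normalised counts at 48 hpf and 363, 352 and 382 at 96 hpf, lower by 3.83-fold. CTSA fell 3.33-fold and TPP1 3.002-fold, whereas LGMN, an asparagine-specific protease, rose 6.17-fold (236 ± 6.87 normalised counts at 48 hpf and 1468 ± 82.7 at 96 hpf). Chaperones were evenly split, 10 higher and 10 lower of 29 (median -0.04, or 0.28 with library sizes alone). The cytosolic HSPA8 and HSP90AA1 rose 1.45-fold and 1.34-fold, and HSPA5 and PDIA6 of the endoplasmic reticulum fell 1.57-fold and 1.87-fold.

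The largest decrease of all genes tested was that of ASTL, an astacin-like metalloprotease, the family to which the hatching enzymes of fish belong. It had 1039.5, 1097 and 1322 normalised counts at 48 hpf and 0.864, 0.835 and 6.76 at 96 hpf, lower by 534-fold on its kept line. The symbol holds 14 lines, and with all of them summed the direction turned (log2 1.73, adjusted p = 1.1e-11). The decrease is that of the kept line. Without 96 hpf replicate 14 the log2 change on that line was -10.23 against -9.06. Of 10 genes of hatching and proteases 5 fell and 4 rose (median -0.13, or 0.19 with library sizes alone). Other genes named for the size of their decrease were GREB1, an estrogen-responsive gene of human cells (11.8-fold), and MOSPD2, which tethers organelles (6.91-fold). Among the largest increases was ZAN, known in mammals from the sperm surface, with 2.07, 2.82 and 1.95 normalised counts at 48 hpf and 1333, 1419 and 1438 at 96 hpf (576-fold).

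Blood, vessel, immune and pigment lists showed no common direction. Of 11 genes of oxygen transport and heme 5 rose and 4 fell. HBE1, named for an embryonic globin, had 458, 523 and 426 normalised counts at 48 hpf and 252, 240.4 and 247 at 96 hpf, lower by 1.90-fold, and ALAS2, the first enzyme of heme in red cells, rose 1.93-fold. Of 15 vessel genes 4 rose and 4 fell, with VEGFA, the vessel growth factor, higher (2.01-fold) and CLDN5, an endothelial junction protein, lower (2.70-fold). Innate immune genes were split, 5 higher and 5 lower of 17. EPX/MPO, peroxidases of granulocytes that share 1 feature, had 39.3, 22.6 and 23.5 normalised counts at 48 hpf and 2112, 2406 and 2639 at 96 hpf, a rise of 83.8-fold. MPEG1, a pore-forming protein of macrophages, fell 3.62-fold. Of 12 genes of adaptive immunity with a line only 7 were tested, 1 higher and 3 lower (median -0.27, or 0.05 with library sizes alone). Of 19 pigment genes 8 rose and 4 fell, PNP, of purine handling in pigment cells, by 3.52-fold upward and SLC45A2, a melanosome carrier, by 2.93-fold downward.

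The control libraries of 24 hpf, put on 1 scale with the others over 27 libraries, extend the levels backward in time. They share the 48 hpf libraries with the comparison above, so only levels are given, as mean ± SD of 3 libraries at 24, 48 and 96 hpf. Some genes that fell after 48 hpf had their highest level at 48 hpf. TF had 1700 ± 101, 3821 ± 221 and 361 ± 35.2 normalised counts and APOB 192 ± 40.1, 633 ± 33.1 and 74.9 ± 22.3. DLL3 had 1206 ± 72.5, 2788 ± 165 and 272 ± 26.3, GDF11 43.1 ± 0.921, 247 ± 10.6 and 28.7 ± 1.66 and MOSPD2 84.5 ± 14.8, 1481 ± 44.6 and 224 ± 6.89. For these 5 genes the 48 hpf libraries lie above both other stages. ASTL, LIN28A and GREB1 were highest at 24 hpf. ASTL had 7434 ± 352, 735 ± 97.6 and 1.87 ± 2.26, LIN28A 384 ± 37.9, 132 ± 16.02 and 14.8 ± 0.234 and GREB1 364 ± 23.7, 69.6 ± 10.2 and 6.19 ± 0.891. The ASTL levels are those of its kept line only. With lines summed the change of ASTL from 48 to 96 hpf turned (log2 1.73). RRM2 had like means at 24 and 48 hpf and a lower one at 96 hpf, with 542 ± 15.3, 539 ± 22.6 and 112 ± 0.954. The pancreas gene PRSS1, the synapse gene SV2B and the ammonia channel gene RHCG were highest at 96 hpf. PRSS1 had 7.85 ± 5.23, 19.9 ± 1.02 and 11528 ± 474, SV2B 30.6 ± 6.71, 39.7 ± 6.36 and 437 ± 5.91 and RHCG 0.899 ± 0.779, 26.6 ± 3.11 and 546 ± 32.99. Other genes that rose after 48 hpf had their lowest level at 48 hpf. PCK1 had 1337 ± 74.8, 443 ± 18.3 and 1857 ± 56.6 and EPX/MPO 509 ± 8.22, 18.1 ± 5.95 and 1585 ± 176. BCO1 had 522 ± 19.1, 37.6 ± 0.643 and 253 ± 15.4 and DDC 1005 ± 6.95, 5.02 ± 1.13 and 32.3 ± 2.86. At 96 hpf BCO1 and DDC were still below their 24 hpf level.

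**Figure D4:**
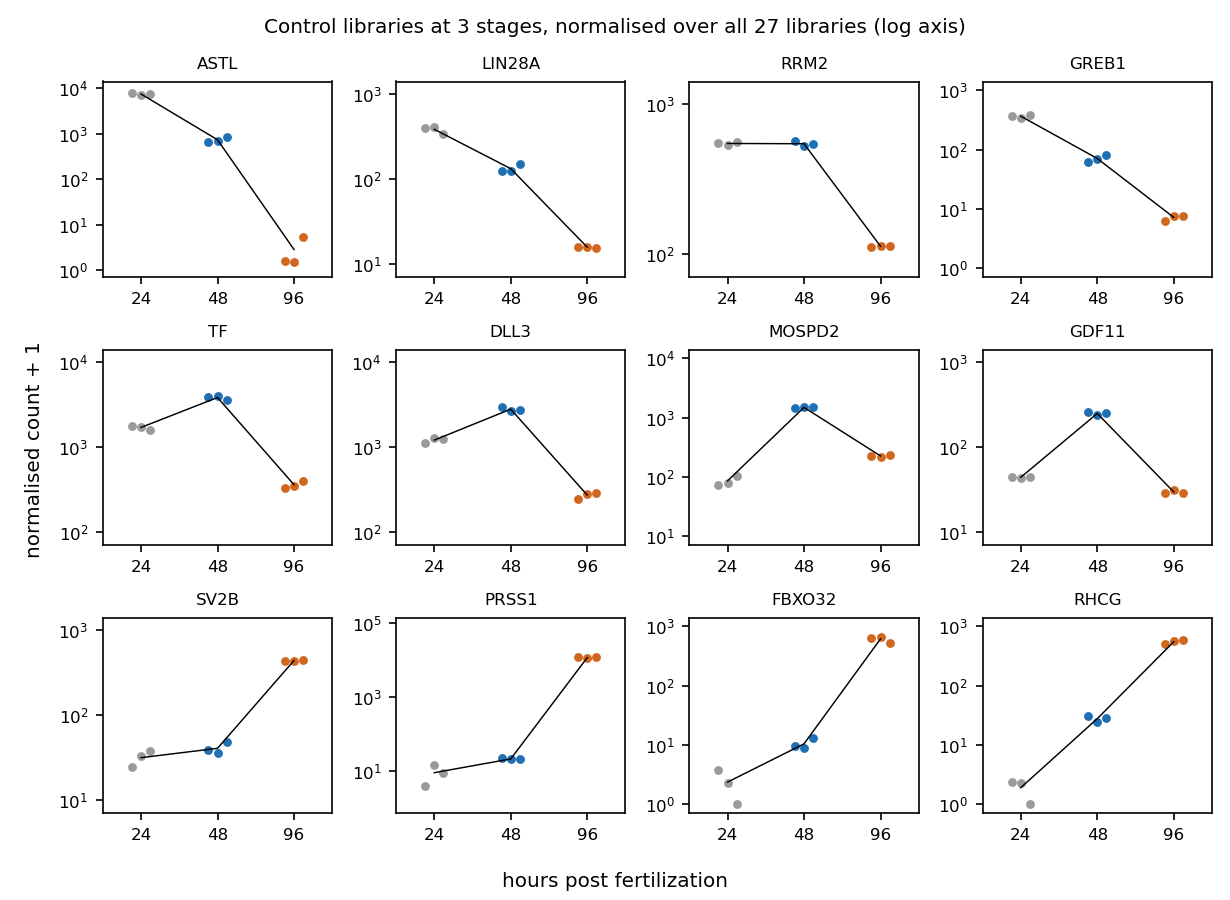
Normalised count plus 1, on a log axis, of 12 genes in 9 control libraries at 24 (grey), 48 (blue) and 96 hpf (orange), on the scale of all 27 libraries; lines join the means. ASTL, LIN28A and GREB1 are highest at 24 hpf, TF, DLL3, MOSPD2 and GDF11 at 48 hpf, and the bottom row at 96 hpf. ASTL is shown by its kept line only.

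Most of these changes also occurred in oil. Of 1872 genes that changed by 2-fold or more in controls in the fit over 27 libraries, 1830 moved in the same direction from 48 to 96 hpf in slick oil, and 1862 in source oil. Of the 1872, 1646 were also called in that direction in slick (87.9%) and 1724 in source (92.1%). The size of the change was tested as an interaction, which uses the same control libraries for both oils. It differed in slick for 1036 of 8898 genes (11.6%), 448 of them higher (5.03%) and 588 lower (6.61%), and in source for 58 (0.652%), 23 higher (0.258%) and 35 lower (0.393%). In slick the cholesterol synthesis rise was larger: 19 of 22 genes differed upward, with a median log2 change of 2.61 in slick, 0.96 in controls and 1.07 in source. LSS, which makes lanosterol, changed by 3.15 in slick and 1.43 in controls (difference 1.71 ± 0.17 SE, adjusted p = 5.6e-14). Lens genes rose less in slick, 8 of 11 differing downward (median 0.20 against 1.35; 0.96 in source). CRYBB2, a beta crystallin, changed by -0.60 against 1.31. Of 22 phototransduction genes 6 differed downward in slick, and of 23 ribosome assembly genes 16 (median -0.06 against 0.78; 0.78 in source). Of 44 synapse genes 15 differed downward in slick and 2 in source. None of 12 pancreatic and 13 brush border genes was called different in either oil by edgeR or DESeq2, which does not show that they changed alike. At an unadjusted p below 0.05 in edgeR, 1 pancreatic gene differed in slick and 1 in source, and 0 and 3 brush border genes. Some cartilage genes differed downward in both oils, 9 of 19 in slick and 10 in source, on shared controls. These cartilage counts were not taken under the alternative settings, which lower the count over all genes as given next. The slick count was 659 in DESeq2. The source count was 11 with lines summed, and 34, 35, 32, 34 and 34 without 48 hpf control replicates 4 and 5, 6 and 7, 96 hpf control replicates 10 and 11, 12 and 13, and 48 hpf source replicate 13. In source, ASTL had a log2 change of -5.08 against -8.96 in controls on its kept line (adjusted p = 0.00018). That call was lost without 96 hpf source replicate 18 (difference 1.35) and with lines summed (0.58).

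**Figure D5:**
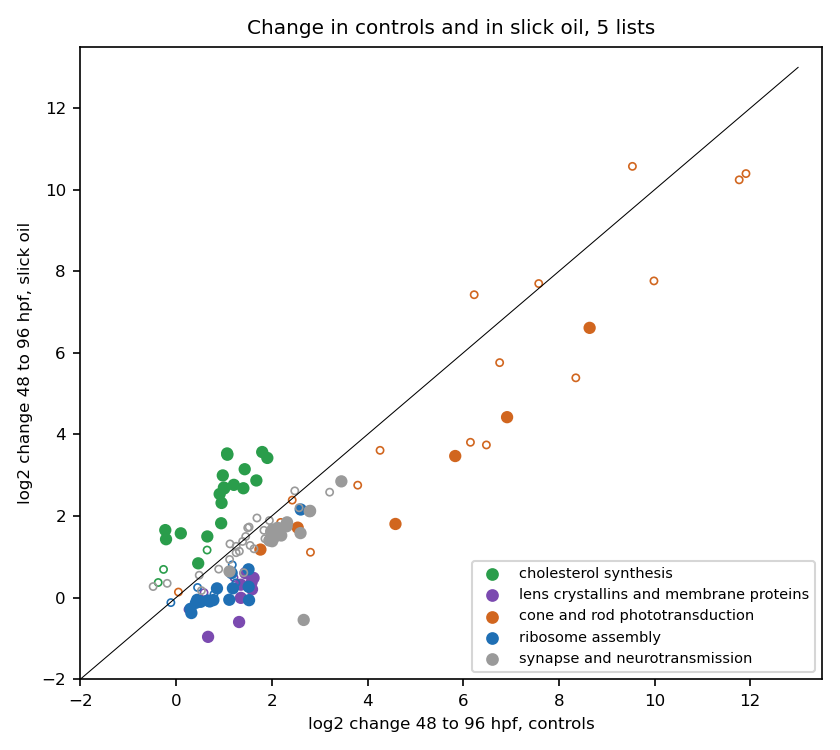
Log2 change from 48 to 96 hpf in slick oil (y axis) against controls (x axis) for the tested members of 5 lists, in 1 fit over 27 libraries; filled points differ between them (adjusted p below 0.05) and the line marks equal change. Cholesterol genes lie above the line, and lens, ribosome assembly and most filled phototransduction and synapse points below it.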

How the data were processed

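RNA of whole animals was sequenced on a HiSeq instrument from TruSeq libraries, per the labels' protocols. The authors deposited raw read counts per line of a table keyed to human gene identifiers, and HTSeq, DESeq2 and hg19 are named, with no role, in the submitters' processing notes. No aligner is named there. The authors also deposited tables of comparisons whose mean normalised counts (a signal, counts divided by size factors, per the file headers) served only to check which line to keep, and which gave the gene symbols.

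The table had 42538 lines, 332 of them without an identifier (at most 0.043% of counts, left out). Of 12653 identifiers, 12210 had a symbol, and 10.8% of counts over 1 line per gene fell on genes without one. For the 5654 identifiers with several distinct lines, only the line with the most counts over all samples was used. It was at a median of 1.01 times the authors' deposited mean, against 2.02 for summed lines, and 11.9% to 13.1% of such genes were over 1.5-fold off. For several genes whose kept line strays, among them CEL, GNB3 and ASTL, the value with summed lines is given beside. Identifiers with identical lines were joined into 103 features.

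Near-identical samples (a chi-square test of their counts over genes with at least 20 counts, p above 0.001) were summed. Deposited samples held 7313439 to 7962288 counts over all lines at 48 hpf and 6666896 to 7097931 at 96 hpf, and over kept lines 2126001 to 2270854 and 1968865 to 2092433. Genes were filtered with filterByExpr, scaled by TMM and tested with edgeR 4.0.16 (R 4.3.3, limma 3.58.1), quasi-likelihood, with Benjamini-Hochberg adjustment. The 6 control libraries made 1 fit (9128 genes, biological coefficient of variation 3.97%, 4 residual degrees of freedom). The interactions came from a fit of all 27 libraries in 9 groups (8898 genes). Called means an adjusted p below 0.05. An adjusted p without a named test is from these fits, and fold changes are their fitted values. At 0 counts in a stage, the fold is a lower bound against 3 counts over that stage's libraries. At 1 to 3 counts, the ratio has a 95% exact (Clopper-Pearson) interval. Both cover counting error only. On simulated counts (8973 genes) the test recovered 98% of 2-fold and 88% of 1.5-fold increases, 92% of decreases to 0.5-fold and 80% to 0.667-fold. It called 10 unchanged genes. The simulation changed 50 well-counted genes at each fold and gave all genes the same spread. These rates need not hold where most genes change, as here.

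Alternatives were RLE scaling, DESeq2 1.42.0, no filter, summed lines, each deposited sample, all 27 libraries, 1 library left out and, added after seeing the data, library sizes alone. The members and 65 gene lists were chosen with earlier results of these data known. Genes named are the 15 called genes with the highest and 15 with the lowest change (mean normalised count of at least 50, groups not overlapping), from each list the first 2 tested and up to 5 called with the largest change (mean of at least 20), and 5 a side for each interaction (mean of at least 50). Chosen after their values were seen were AMY2A, CFTR, CHAT, CNTN2, CYP1A1, DCX, E2F1, FGA, FGB, FOXI1, FOXI3, GAD1, GNAT1, GNAT2, MGAM, NOTCH3, NR5A2, NUP133, PDE6C, SLC15A1, SLC5A1, SLC6A19, TMPRSS15 and TPH1. The results of a few of these genes are not reported here. No genome was used, so no sequences or coordinates are given.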

Additional observations from a re-analysis of the deposited data

Results flagged for a closer look

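The results below were singled out because the change from 48 to 96 hpf differed in an oil from that in controls by the interaction test of edgeR. All values are differences of log2 change, oil minus controls, over 3 libraries a group, and both oils use the same controls. They are from the 5 highest and 5 lowest called genes whose normalised count averaged at least 50.

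In slick the change was higher for TM7SF2 (1.88) and LSS (1.71), enzymes of cholesterol synthesis, for IGFBP1, a binder of insulin-like growth factors (1.87), and for BCL6B, a transcriptional repressor (1.69). TM7SF2 changed by -0.23 in controls and 1.65 in slick. In the fit of the control libraries alone its change (-0.29) was called by edgeR, was not called by DESeq2, and turned to 0.031 with library sizes alone. It was lower for DDC, which makes dopamine and serotonin (-3.22), the phototransduction genes RGS9 (-2.50) and GNB3 (-2.03), the ammonia channel RHCG (-1.99) and the crystallin CRYBB2 (-1.92). Without 48 hpf slick replicate 6 the differences of RGS9 (-2.17) and GNB3 (-1.48) missed the threshold, and with all lines of a gene summed that of RGS9 did (-0.91). DDC rose by 2.67 in controls and changed by -0.55 in slick.

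In source the change was higher for ASTL (3.87), BCO1 (0.88), F2 (0.84), G6PC (0.71) and FA2H, a fatty acid hydroxylase (0.64). It was lower for DUS1L, which modifies transfer RNA (-1.18), RHCG (-0.95), FNDC3B (-0.85), CPS1, the first enzyme of the urea cycle (-0.84), and WNK3, a kinase of salt transport (-0.79). Several of these calls in source were lost when a single library was left out. Those of BCO1, FA2H, FNDC3B and WNK3 were near the threshold (adjusted p 0.034 to 0.047 in edgeR). They were lost for many choices of the library left out. ASTL missed the threshold without 96 hpf source replicate 18 (1.35) and with lines summed (0.58), and DUS1L, F2 and G6PC alone kept their call under every alternative run on this test.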

How the results depend on the processing

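No paired analysis was possible because the 48 and 96 hpf controls share no replicate numbers. Of the 5696 genes called, 80.9% were called in the same direction by DESeq2, 100% with RLE scaling, 93.5% with all lines of a gene summed, 93.4% with each deposited sample kept separate, and 89.6% to 94.6% with 1 library left out. With a library left out the count was 5269 to 5570, with 2754 to 2866 higher and 2515 to 2707 lower. Library sizes alone, a choice made after seeing the data, kept 75.5% of the calls and gave 4534 higher and 1362 lower genes, 297 of the latter by 2-fold or more, so that 76.9% of called genes were higher against 51.6%. Of 399 genes named by rule, 359 kept direction and call with it. Among genes reported here it turned MCM2 (0.051), PAX5 (0.0080), PSMA1 (0.054), RPL12 (0.010), RPL30 (0.0062), SF3B1 (0.065), TM7SF2 (0.031) and TP63 (0.0091), all without a call. ASTL turned with lines summed (1.73). Of 65 lists, 10 changed the sign of their median with library sizes alone and 3 with lines summed. With each deposited sample no neuropeptide or germ cell gene passed the filter, so those medians could not be had. The count of genes that differed in slick was 659 in DESeq2 against 1036, and 852 to 1046 with a library left out. That for source was 11 with lines summed and 113 with each deposited sample, against 58, and 32 to 76 with a library left out. It was 34 without 48 hpf control replicates 4 and 5, 96 hpf control replicates 12 and 13 or 48 hpf source replicate 13, 35 without 48 hpf control replicates 6 and 7, 32 without 96 hpf control replicates 10 and 11, and 69 without 96 hpf replicate 14. Where a setting moved a result, the cause was not tested. Depth limits genes near 0 counts in a stage. Bounds or counting intervals are given at 3 counts or fewer, and fitted changes just above that rest on few counts.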

Other observations

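Clock genes rose in 12 of 18 and fell in 3 (median log2 change 0.58, beside -0.00228 over all genes). PER1, a repressor of the clock, had 55.8, 43.3 and 46.9 normalised counts at 48 hpf and 284, 243 and 259 at 96 hpf, a rise of 5.40-fold, and NR1D2, a second repressor, rose 3.60-fold. The activators were split. ARNTL and ARNTL2 fell 1.93-fold and 2.41-fold, while CLOCK was called higher. On the scale of all 27 libraries CLOCK had 115 ± 6.45 normalised counts at 48 hpf and 158 ± 11.3 at 96 hpf. The light cycle is given in the labels but the hour of sampling is not, so stage and hour cannot be told apart. Genes of autophagy and muscle wasting rose in 10 of 17 and fell in 3. FBXO32, the ubiquitin ligase known from wasting muscle, had 13.4, 12.2 and 18.6 normalised counts at 48 hpf and 964, 993 and 794 at 96 hpf, a rise of 62.7-fold (adjusted p = 5.9e-35). KLF15, a factor of fasting metabolism, rose 5.87-fold (26.8 ± 4.84 normalised counts at 48 hpf and 159 ± 5.48 at 96 hpf) and ULK2, which starts autophagy, 2.60-fold. BNIP3, a mitophagy receptor induced by low oxygen, had 22.7, 22.6 and 17.6 normalised counts at 48 hpf and 145, 143 and 147 at 96 hpf, a rise of 6.86-fold.

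In the hypoxia and IGF list 8 of 19 genes rose and 6 fell, IGFBP1 by 2.16-fold upward (log2 2.21 with lines summed). Antioxidant genes were split, 5 higher and 4 lower of 15, with KEAP1 up 2.33-fold and TXN, thioredoxin, down 2.24-fold. Of 12 damage response and cell death genes 3 rose and 3 fell, SESN1 rising 2.37-fold. Transfer RNA synthetase and amino acid response genes rose in 12 of 23 and fell in 5 (median 0.14), with ASNS up 1.75-fold. In DESeq2 9 of them rose and 1 fell. Of 7 pluripotency genes 3 fell and 2 rose (median -0.17, or 0.15 with library sizes alone), SALL4 by 3.42-fold downward (log2 -0.93 with lines summed, against -1.77). Of 5 neuropeptide genes 2 rose and 1 fell. AGRP, the appetite-stimulating neuropeptide, had 19.6, 23.5 and 16.6 normalised counts at 48 hpf and 0.864, 2.504 and 1.69 at 96 hpf, lower by 11.04-fold. Of 2 swim bladder genes 1 rose and 1 fell, and both germ cell genes tested missed the threshold. The line named NUP133, a nuclear pore gene, held 5.49% of counts at 48 hpf and 3.39% at 96 hpf, next to ACTC1 (5.66% and 3.58%). These shares are over 1 line per gene. The NUP133 line was picked after its values were seen, and whether its reads come from that gene was not tested.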
